A study of Drosophila melanogaster with 6 samples.

Results

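The genes of the vacuolar-type proton pump (V-ATPase) were taken as every *Drosophila melanogaster* gene whose FlyBase symbol starts with *Vha*. The rule gave 33 genes, and 32 of them matched a row among the 17617 genes in the files. *Vha44*, which encodes subunit C, could not be matched by its current identifier and was not analysed here. RNA came from dissected adult hindguts, in pools of 100 and 3 libraries per genotype. The study states that the rectum was left out for its quantitative PCR, and its sequencing methods do not mention the rectum. Control flies carried *byn-G4*, *tub-G80ts* and *U-gfp*, and the other flies carried these alleles and *U-RasV12*, which encodes Ras locked in its active state. *byn-G4* is a Gal4 driver of the hindgut epithelium and *tub-G80ts* a temperature-sensitive Gal4 repressor, so that *U-gfp*, and in the second genotype *U-RasV12*, were switched on in enterocytes by moving adults from 18°C to 29°C for 7 days. The study collected females after eclosion and started its experiments once they were 3 to 5 days old. The labels give the cell type as enterocytes and muscle, so each pool also holds cells in which the driver is not active.

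The V-ATPase is a rotary motor. Its V1 sector, on the cytosolic side, hydrolyses ATP with subunits A and B, and a central shaft with subunits D and F turns a ring of proteolipids (c and c'') in the membrane sector V0, where subunit a lets protons pass. The pump acidifies lysosomes and endosomes in all cells, and in insect epithelia it also sits in the apical membrane, where it energises the transport of ions. Most subunits are encoded by several paralogues in the fly, and some of these copies are known mainly from the testis.

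Values are read counts per gene that the authors scaled by 1 factor per library and rounded, with totals from 932389 to 1031380 per library. The libraries read only the 3′ end of polyadenylated transcripts, so a value does not grow with transcript length and levels of different genes were set side by side as they stand. Read depth is not known exactly. In control replicates 1 and 3, 17 and 15 of the whole numbers up to 60 never occur, which makes low values there coarse. The hindgut transcription factor genes *byn* and *otp* were present in every library, and their summed value was 327 to 500 in control and 80 to 158 in *RasV12* libraries, with both genes called lower (*otp* lost its call in 2 of 6 fits with 1 library removed, with an adjusted p up to 0.0859). The visceral muscle list summed to 12713 to 13999 in control and 5057 to 5849 in *RasV12* libraries, with 11 of 12 genes called lower. Over all genes tested 7.70% were called lower, and 26.3% among those with a mean of at least 500. *Tm1* kept its call in 2 of 6 fits with 1 library removed (limma's adjusted p up to 0.148). Without limma's variance trend *Tm1*, *Act57B*, *Act87E* and *Prm* lost theirs. In these bulk samples fewer cells of a type and less RNA per cell cannot be told apart, and the part of either marker list in the results was not tested. The labels name the libraries as replicates without saying what separates them, so p-values measure the spread between these libraries only.

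In control hindguts the pump genes were among the most abundant transcripts. The 32 genes summed to 51948, 55123 and 51652 in control replicates 1, 2 and 3, which was 5.39%, 5.91% and 5.11% of all values. In *RasV12* replicates 1, 2 and 3 the sum was 18835, 22025 and 22028, or 1.89%, 2.19% and 2.14%. The sum in *RasV12* hindguts was thus 39.6% of that in control, and the groups lay far apart. Without *Vha16-1*, whose control values were uneven, it was 41.0%. The V1 genes fell to 32.6% of control (15785 ± 1624 against 5140 ± 70.9), the V0 genes to 39.9% (20408 ± 4187 against 8140 ± 1174) and the accessory *VhaAC45* genes to 46.0% (SD, n = 3 each). These sums are descriptions and carry no test.

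**Figure D1:**
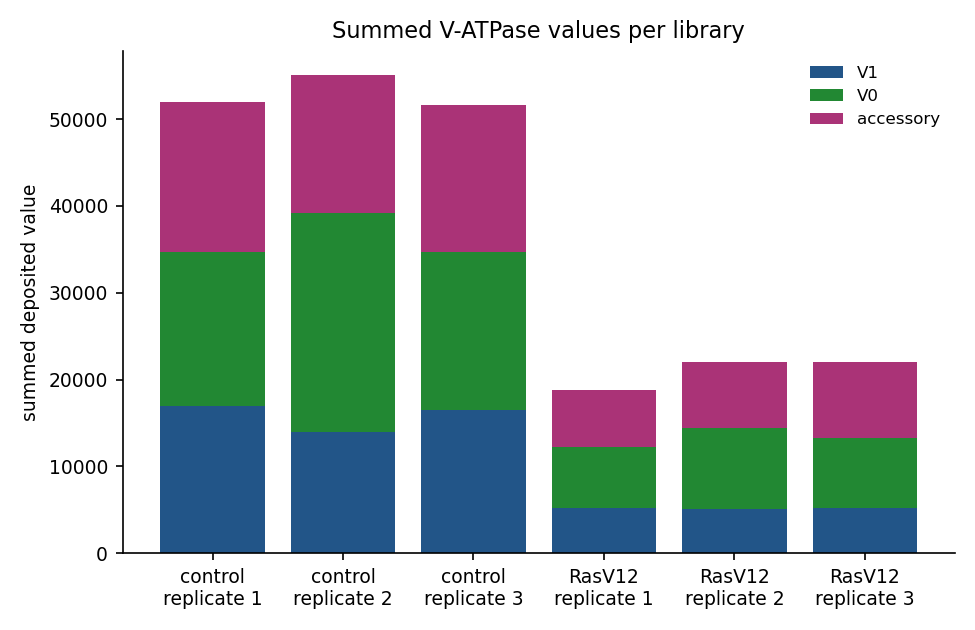
Stacked bars give the summed deposited value of the V1, V0 and accessory V-ATPase genes in each of the 6 libraries. The control bars reach 51652 to 55123 and the *RasV12* bars 18835 to 22028, and each of the 3 parts is lower in every *RasV12* library than in any control library.

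Nearly all of this value came from a single set of paralogues. A mean of at least 500 over the 6 libraries was reached by 13 genes, which together supply each matched subunit once: *Vha68-2* (A), *Vha55* (B), *Vha36-1* (D), *Vha26* (E), *Vha14-1* (F), *Vha13* (G), *VhaSFD* (H), *Vha100-2* (a), *Vha16-1* (c), *VhaPPA1-1* (c''), *VhaAC39-1* (d), *VhaM9.7-b* (e) and *VhaAC45*. The leading paralogue held at least 99.3% of its subunit's value in every control library for A, D, F, c, c'', d and Ac45. In control, only subunits a and e had other copies above 1%, with *Vha100-2* at 91.8% to 97.8% and *VhaM9.7-b* at 97.0% to 97.8%. The level of 500 was chosen after the values had been seen.

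The same set led in *RasV12* hindguts. *Vha68-2* held 97.4% to 99.5% of the A subunit value, *Vha100-2* 92.9% to 93.9% of subunit a and *VhaM9.7-b* 94.7% to 95.8% of subunit e. No subunit had another paralogue in the lead in any library.

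Of the 18 V-ATPase genes that passed the filter on low values (above 9 in at least 1 library), 12 were lower in *RasV12* hindguts and 0 were higher at an adjusted p under 0.05 (limma on log2(value + 1), Benjamini-Hochberg over the 7155 genes tested). At an unadjusted p under 0.05 the numbers were 13 and 1, and limma-voom on the deposited values called 13 and 0. Among all genes tested, 7.70% were called lower and 9.04% higher. All 12 lower genes belong to the 13 abundant ones, and among the 323 genes with a mean of at least 500, 26.3% were called lower. The log2 fold changes of the 13 genes ran from −2.41 to −0.63 with a median of −1.41, against 0.02 for all genes tested and −0.06 for the genes of high level. For 13 of the 18 genes all *RasV12* libraries lay below all control libraries, where the background was 15.3%.

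**Figure D2:**
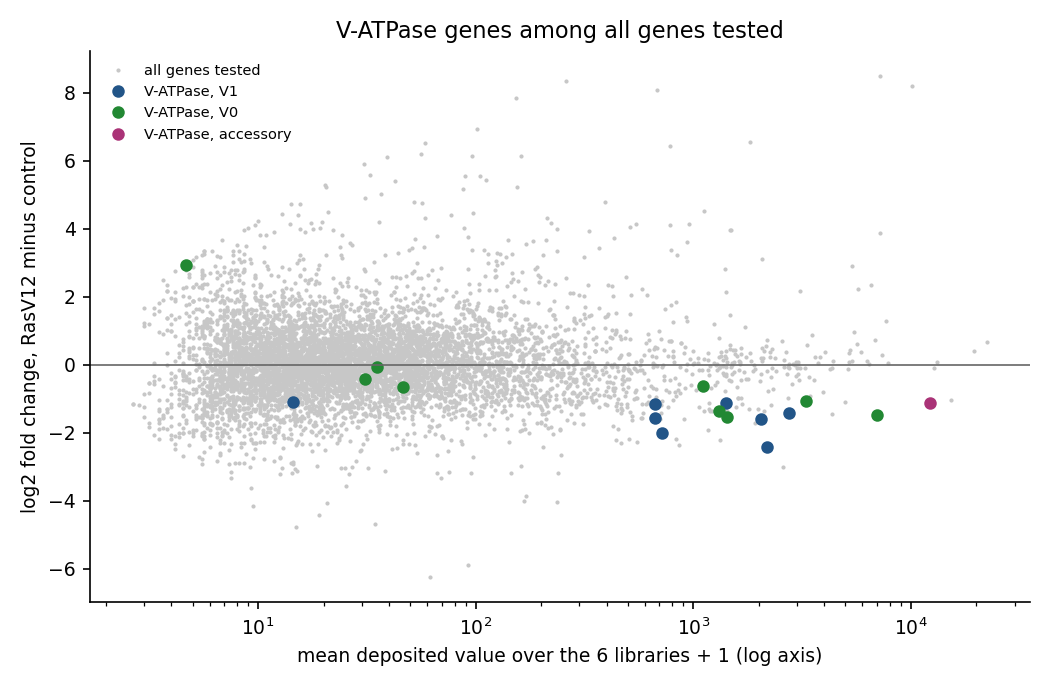
Each point is a gene, with its mean deposited value over the 6 libraries plus 1 on a log axis against its log2 fold change between *RasV12* and control hindguts. All V-ATPase genes tested are coloured. The abundant ones lie on the right, all below 0, between −2.41 and −0.63, while the grey points of all 7155 genes tested centre on 0.02. The coloured points farther left are the paralogues of low level, of which *VhaM9.7-d* lies above 0.

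*Vha68-2* (FBgn0263598, chromosome 2L of BDGP6.54, 12974322 to 12978607) encodes subunit A, which holds the catalytic sites for ATP. It had values of 3768, 3580 and 3641 in control and 863, 637 and 595 in *RasV12* hindguts. The control libraries were close together and the groups were far apart. It fell 5.24-fold, the largest change among the 12 genes called (log2 fold change −2.41, standard error 0.20, limma's adjusted p = 2.92e-06).

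*Vha55* (FBgn0005671, 3R, 12623762 to 12627829) encodes subunit B, which alternates with A in the catalytic head. Its values were 3234, 2528 and 3532 in control and 891, 1122 and 1021 in *RasV12* libraries. The groups did not overlap, and the fall was 3.06-fold (log2 fold change −1.61, standard error 0.20, limma's adjusted p = 0.000121). A and B enter the head in equal number, and the ratio of *Vha55* to *Vha68-2*, chosen after the values had been seen, was 0.706 to 0.970 in control and 1.03 to 1.76 in *RasV12* libraries. *Vha68-2* had the largest fall, so the direction of this ratio is set by that choice, and it is given as a description.

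The peripheral stalks that hold the head in place are built from subunits E and G. *Vha26* (E, FBgn0283535, 3R, 5591763 to 5595356) had values of 1407, 900 and 1151 in control and 342, 258 and 252 in *RasV12* libraries. The groups did not overlap, and the gene fell 4.06-fold (log2 fold change −2.01, standard error 0.23, limma's adjusted p = 5.81e-05). *Vha13* (G, FBgn0283536, 3R, 19643018 to 19644386) stood at 4229, 3527 and 4212 in control and at 1399, 1586 and 1514 in *RasV12* hindguts. It had the highest control mean of the V1 genes, although *Vha68-2* exceeded it in control replicate 2, and fell 2.66-fold (log2 fold change −1.41, standard error 0.18, limma's adjusted p = 0.000165).

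Genes of the shaft and of the regulatory subunit H were lower too. *Vha36-1* (D, FBgn0022097, 2R, 15541435 to 15542498) had values of 2344, 1744 and 1745 in control and 968, 713 and 998 in *RasV12* libraries (log2 fold change −1.12, standard error 0.21, limma's adjusted p = 0.00264). *Vha14-1* (F, FBgn0262512, 2R, 15679426 to 15680084) had 1037, 739 and 985 against 360, 372 and 509 (log2 fold change −1.15, standard error 0.22, limma's adjusted p = 0.00309). The means were 45.9% and 44.9% of control, without overlap between the groups. *VhaSFD* (H, FBgn0027779, 2L, 16722883 to 16727826) had 874, 897 and 1218 in control and 334, 367 and 292 in *RasV12* libraries. It fell 3.01-fold (log2 fold change −1.58, standard error 0.21, limma's adjusted p = 0.000239).

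In V0, *Vha16-1* (FBgn0262736, 2R, 6625242 to 6633090) encodes the proteolipid c, of which several copies form the rotating ring. Its values were 7576, 16197 and 7525 in control and 2943, 4516 and 3214 in *RasV12* libraries. Control replicate 2 stood well above the other control libraries, and *RasV12* replicate 2 was also the highest of its group. The gene fell 2.93-fold (log2 fold change −1.48, standard error 0.28, limma's adjusted p = 0.00284), and the log2 fold change without control replicate 2 was −1.11 (adjusted p = 0.0265 with limma). *VhaPPA1-1* (c'', FBgn0028662, 3R, 14902330 to 14904061), the related proteolipid of the same ring, had steadier values of 4617, 4223 and 4528 against 1799, 2238 and 2406. It was 48.2% of control (log2 fold change −1.06, standard error 0.19, limma's adjusted p = 0.00166).

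*Vha100-2* (FBgn0028670, 3R, 18390323 to 18399169) encodes subunit a, which carries the proton path beside the ring. It had 1713, 1911 and 2048 in control and 665, 825 and 731 in *RasV12* libraries, a fall of 2.55-fold without overlap (log2 fold change −1.35, standard error 0.19, limma's adjusted p = 0.000307). *VhaAC39-1* (d, FBgn0285910, X, 3880748 to 3882967), which couples the ring to the shaft, had 2382, 1670 and 2373 in control and 822, 664 and 707 in *RasV12* libraries. It was 34.1% of control, without overlap between the groups (log2 fold change −1.54, standard error 0.21, limma's adjusted p = 0.000231).

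The small membrane subunit e was the only abundant one that did not pass the test. *VhaM9.7-b* (FBgn0028663, 3L, 21539862 to 21541215) had 1293, 1107 and 1656 in control and 701, 1005 and 899 in *RasV12* libraries. The groups did not overlap, but the mean was still 64.2% of control, and the log2 fold change of −0.63 (standard error 0.22, 95% interval −1.11 to −0.16) had a limma adjusted p of 0.0640. It was the abundant member with the smallest change. Scaling each library to the mean total gave −0.70 (adjusted p = 0.0363), and limma-voom on the deposited values gave −0.70 (adjusted p = 0.0343), so its call depends on these choices. With each library left out in turn the adjusted p was 0.0621 to 0.189. The summed V1 value was 0.552 to 0.952 of the V0 value in control and 0.541 to 0.736 in *RasV12* libraries, which overlap, and without *Vha16-1*, a choice made after the values had been seen, it was 1.54 to 1.66 and 1.05 to 1.27.

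*VhaAC45* (FBgn0262515, 2R, 9207561 to 9209774), the accessory subunit Ac45 that is attached to V0, had the highest mean of all members, although *Vha16-1* exceeded it in control replicate 2. Its values were 17246, 15961 and 16937 in control, where only 3 genes had a higher mean, and 6661, 7602 and 8777 in *RasV12* libraries. It was 46.0% of control (log2 fold change −1.13, standard error 0.18, limma's adjusted p = 0.000843).

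**Figure D3:**
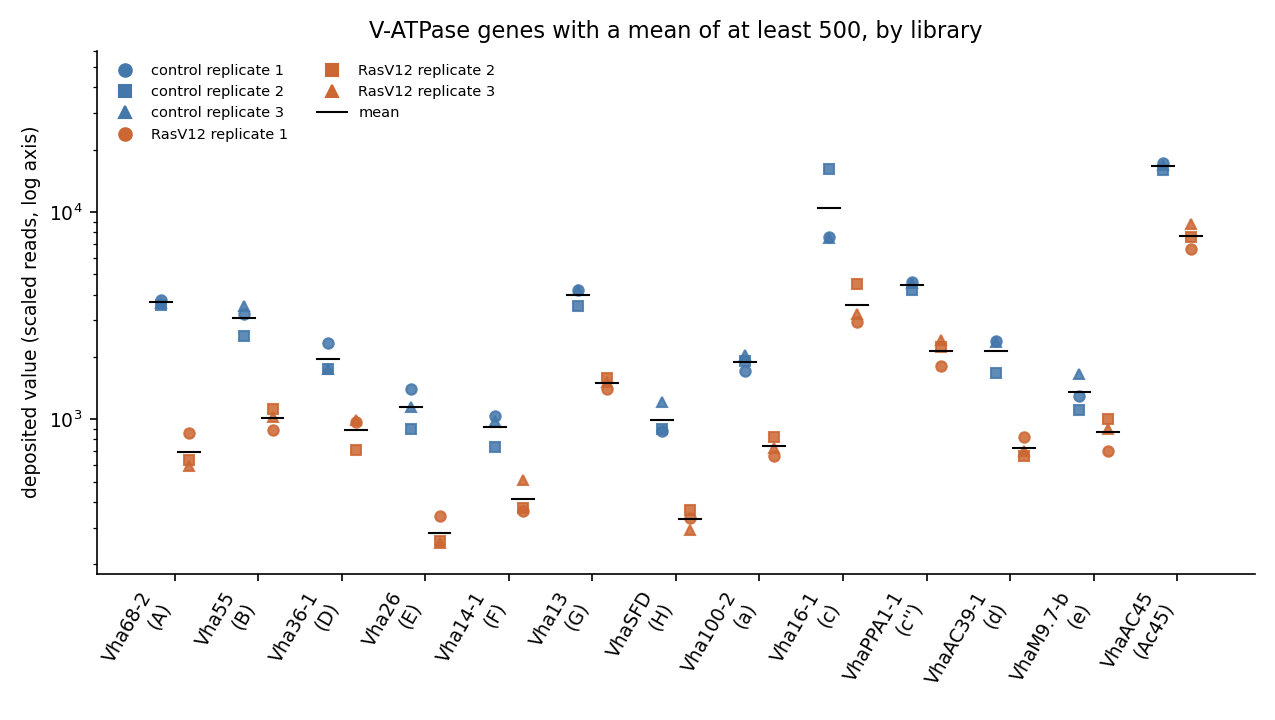
Deposited values of the 13 abundant V-ATPase genes on a log axis, with the subunit in brackets, 1 symbol per library and a line at the mean of each genotype. In all 13 genes the 3 *RasV12* symbols lie below the 3 control symbols, with the widest gap for *Vha68-2* and the narrowest for *VhaM9.7-b*, and control replicate 2 of *Vha16-1* stands apart at 16197.

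With each library left out in turn, the 12 lower genes passed an adjusted p of 0.05 in 72 of 72 fits (limma, highest adjusted p 0.0317). Without the variance trend 8 of the 12 passed it, and *Vha16-1*, *VhaPPA1-1*, *Vha36-1* and *Vha14-1* had limma adjusted p from 0.0591 to 0.0632.

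**Figure D4:**
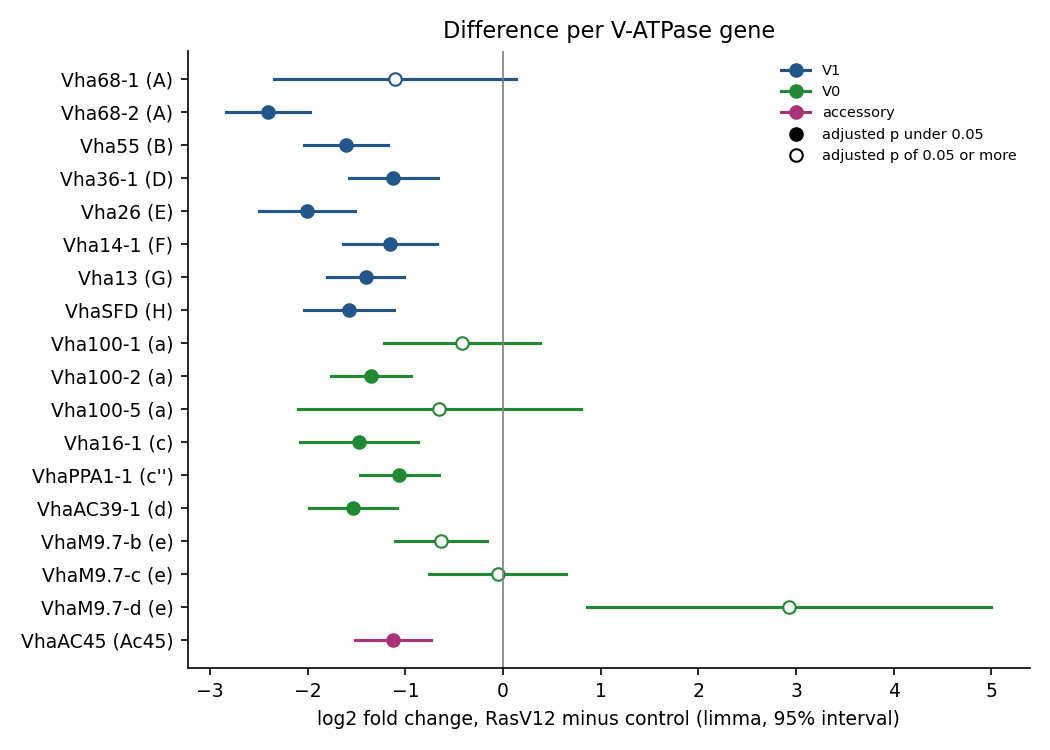
Log2 fold changes of the 18 V-ATPase genes tested, with 95% intervals from limma, coloured by sector and filled where the adjusted p was under 0.05. The 12 filled points lie between −2.41 and −1.06. The open point at the far right is *VhaM9.7-d*, which was listed at 0 in every control library, so that its position depends on the 1 added before taking logs.

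Next to the leading set, 5 paralogues that passed the filter had a low level. *Vha100-1* (a, FBgn0028671, 3R, 29131193 to 29137980), known as the a subunit of neurons, had 39, 28 and 36 in control and 17, 29 and 32 in *RasV12* libraries. The groups overlapped (log2 fold change −0.42, 95% interval −1.22 to 0.38, limma's adjusted p = 0.480). The neuron marker list summed to 42 to 102 in control and 62 to 149 in *RasV12* libraries, and its part in this value was not tested. Its largest value in every library was that of *Syx1A*, with 20, 47 and 35 in control and 78, 90 and 42 in *RasV12* libraries. In contrast, *nSyb* had 7, 36 and 9 against 6, 11 and 7, and *Syt1* was at 0 throughout. *Vha100-5* (a, FBgn0032373, 2L, 11738948 to 11744524) was the most uneven of these 5 in control, with 115, 68 and 9 there and 25, 32 and 23 in *RasV12* libraries. The log2 fold change was −0.65 (adjusted p = 0.553 with limma). When control replicate 3 was left out it was −1.71 (adjusted p = 0.00695), and when control replicate 1 was left out it was 0.0614 (adjusted p = 0.968), so single control libraries decide it.

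*VhaM9.7-c* (e, FBgn0028664, 3L, 4186018 to 4186865) had 37, 31 and 37 in control and 36, 36 and 29 in *RasV12* libraries. The group means were 35.0 ± 3.46 and 33.7 ± 4.04 (SD, 3 libraries each). The log2 fold change of −0.06 had a 95% interval of −0.75 to 0.64, and its adjusted p from limma was 0.928. The gene lies inside 2 longer genes, *Teh2* on the same strand and *CG18675* on the opposite one, and both had values of 0 or 1. *Vha68-1* (A, FBgn0265262, 2L, 13000770 to 13004107) had 28, 11 and 16 against 4, 6 and 16, which overlap (log2 fold change −1.10, 95% interval −2.34 to 0.13, limma's adjusted p = 0.218). Reads that *Vha68-1* and *Vha68-2* might share were not examined.

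*VhaM9.7-d* (e, FBgn0038458, 3R, 16975204 to 16975697) had values in *RasV12* libraries only. It was listed at 0 in all 3 control libraries and had 3, 10 and 9 in *RasV12* libraries, with a limma adjusted p of 0.0532. It was tested only because *RasV12* replicate 2 exceeded 9, and with both groups so low no fold is given. Over the alternatives its adjusted p ran from 0.0114 to 0.160, and it was under 0.05 without the filter on low values (0.0119) and without control replicate 3 (0.0325), for example.

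The other 14 matched genes were at or near 0. *Vha14-2* (F), *Vha16-2*, *Vha16-3* and *Vha16-4* (c), *Vha36-2* (D), *Vha68-3* (A), *Vha100-3* (a), *VhaAC39-2* (d) and *VhaPPA1-2* (c''), 9 in all, were listed at 0 in all 6 libraries. *Vha16-5*, *Vha36-3*, *Vha100-4*, *VhaM9.7-a* and *VhaAC45RP* had values of at most 6 and were not tested. The 5 testis marker genes were at 0 in all 6 libraries, but the study collected females, which have no testis, so these zeros are no check on the copies. Of these silent or nearly silent copies, *Vha36-3* had its only value above 1 in control replicate 1, with 6, and *VhaAC45RP* its only one in *RasV12* replicate 2, also with 6.

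**Figure D5:**
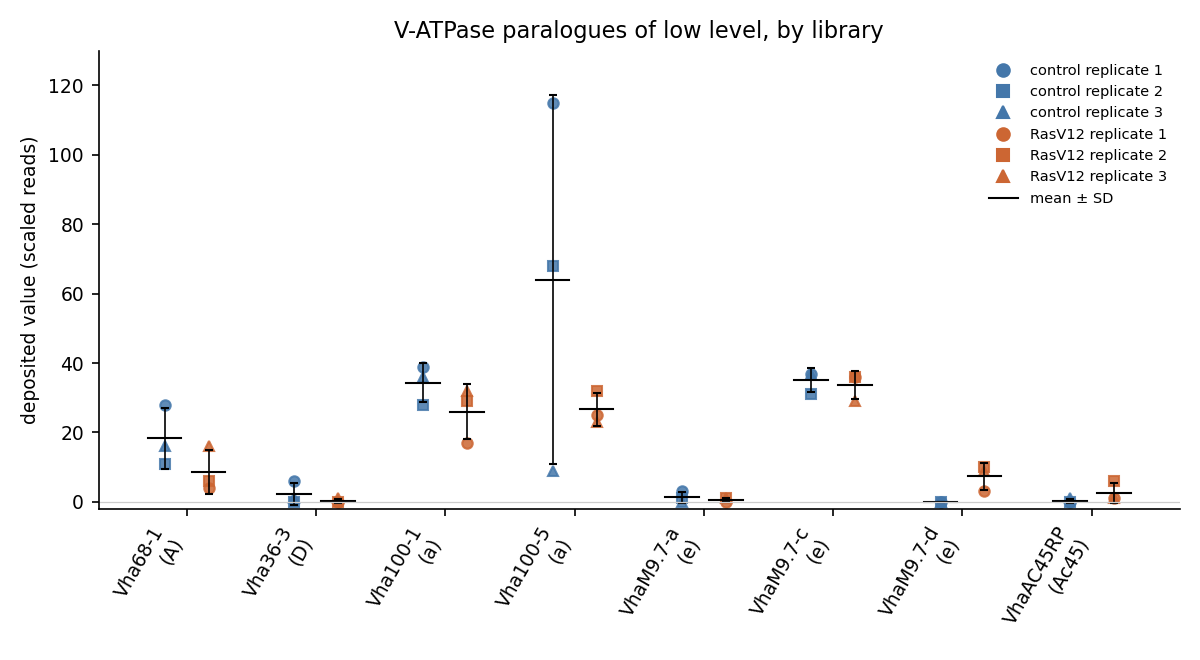
Deposited values of the V-ATPase paralogues of low level, with 1 symbol per library and the mean ± SD of each genotype (n = 3). *Vha100-5* spreads from 9 to 115 in control, *VhaM9.7-c* stays between 29 and 37 in all 6 libraries, and *VhaM9.7-d* has values only in *RasV12* libraries.

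Of the copies at or near 0, 3 are the nearest *Vha* neighbour of their abundant paralogue, while the others lie farther from theirs or on another chromosome. *Vha68-3*, at 0, starts 178 bases beyond the end of *Vha68-2* on the same strand of 2L, with 0 genes between them. On 3R, *Vha100-4* (at most 1) lies 517 bases from *Vha100-2*, again on the same strand with 0 genes between, and *VhaPPA1-2* (0) lies 2052 bases from *VhaPPA1-1*. The c genes *Vha16-2* and *Vha16-3* are 985 bases apart on 3L, and both were at 0. *Vha100-2* overlaps *Vti1b* on the opposite strand, and whether the counting used the strand is not given in the sources used here, and *Vti1b* had values of 14 to 43.

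Further genes were taken from lists of partners of the pump. Of 5 genes for V-ATPase assembly and regulation, 3 were lower and 0 higher, against 7.70% of all genes tested and 26.3% of those with a mean of at least 500, and 0 were called without the variance trend. *ATP6AP2*, an accessory protein of the pump that RefSeq also lists as *VhaM8.9*, had 5284, 7079 and 8183 in control and 3157, 2941 and 3383 in *RasV12* libraries. It fell without overlap (log2 fold change −1.09, standard error 0.20, limma's adjusted p = 0.00226). *Mitf*, a transcription factor known to regulate V-ATPase and lysosome genes in flies, had 76, 47 and 87 against 33, 23 and 28 (log2 fold change −1.26, adjusted p = 0.0224 by limma), a call that held in 2 of 6 fits with 1 library removed (highest adjusted p 0.0961). *mtd*, whose mammalian relatives bind the V-ATPase, had 239, 250 and 298 against 122, 145 and 87 (log2 fold change −1.17, adjusted p = 0.00677 by limma). *Rbcn-3A* and *Rbcn-3B*, which encode the rabconnectin complex that assembles V1 on V0, had values from 14 to 37 and adjusted p of 0.703 and 0.647.

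Genes of the lysosome, the organelle that the pump acidifies, were tested next. Of 18 listed lysosome genes tested, 4 were higher, 1 was lower and 13 did not pass the test, where 9.04% of all genes were called higher and 7.70% lower, and 2 were called in all without the variance trend. The median log2 fold change was 0.39. *Npc2a*, a sterol carrier, had 183, 195 and 155 in control and 384, 533 and 535 in *RasV12* libraries (log2 fold change 1.43, adjusted p = 0.000801 by limma). The protease gene *CtsB* had 512, 556 and 340 against 995, 843 and 907 (log2 fold change 0.99, adjusted p = 0.00871 by limma), and *CtsF* 298, 305 and 376 against 682, 501 and 593 (0.85, adjusted p = 0.0157). With 1 library removed the call of *CtsF* was lost in 4 of 6 fits, with adjusted p up to 0.0597. The other gene called higher, *cathD*, a cathepsin, had 152, 112 and 146 against 231, 194 and 312 (0.83, adjusted p = 0.0414 with limma), a call lost in 5 of 6 such fits. The membrane protein gene *Cln3* had 82, 108 and 90 in control and only 13, 22 and 32 in *RasV12* libraries (−2.09, adjusted p = 0.00140). Of 6 genes for tethering at late endosomes and 8 for docking of TORC1 at the lysosome, 0 were called in either direction with limma or limma-voom. At an unadjusted p under 0.05, 1 of the former passed, *Vps16A* (limma's adjusted p = 0.0608), and 0 of the latter.

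Ion transporters and carbonic anhydrases that share epithelia with the pump were tested as well. Of 14 tested, 5 were lower, 1 was higher and 8 did not pass. Over all genes 7.70% were lower and 9.04% higher, and 26.3% were lower among genes with a mean of at least 500. *Atpalpha*, the catalytic subunit of the sodium pump, had 4119, 4924 and 4768 in control and 845, 521 and 417 in *RasV12* libraries (log2 fold change −3.01, standard error 0.24, limma's adjusted p = 2.71e-06). The genes *Nha1* and *Nha2*, of the sodium/proton antiporter family, fell by 2.22 and 2.19 on the log2 scale (limma's adjusted p = 7.99e-06 and 2.47e-05). The carbonic anhydrase gene *CAH1* fell by 1.13 (limma's adjusted p = 0.00141). *nrv1*, a beta subunit of the sodium pump, fell by 1.00 (adjusted p = 0.00433), a call lost without the variance trend (limma's adjusted p = 0.0643). The gene called higher was the cotransporter gene *Ncc69*, with 1, 2 and 3 in control and 8, 17 and 13 in *RasV12* libraries (adjusted p = 0.0366). It was tested only through its *RasV12* values, since none in control exceeded 9, and with 1 library removed the call was lost in 5 of 6 fits.

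Malpighian tubules, which join the gut at the hindgut and are rich in this pump, were checked by their markers. The 11 tubule marker genes summed to 151 to 180 in control and 94 to 201 in *RasV12* libraries, and 0 of the 5 tested were called, also at an unadjusted p under 0.05. Among those tested, *salt*, *Oatp58Dc*, *ZnT35C* and *Drip* passed the filter only through control values. A lower level in *RasV12* libraries was thus built into the choice of these genes, and their tests are no even check of tubule content. *Uro*, a defining tubule gene, had values of 0 to 3. *List* made up most of these sums, and the other 10 genes, a choice made after the values had been seen, summed to 61, 28 and 19 in control and 14, 17 and 20 in *RasV12* libraries. The part of tubule cells in the V-ATPase values was not tested. Midgut digestive enzyme genes summed to 14 to 132 in control and 126 to 249 in *RasV12* libraries, and 1 of the 2 tested, *yip7*, was called higher. The call of *yip7* was lost in 4 of 6 fits with 1 library removed, without the variance trend and with limma-voom. Among all genes tested, 9.04% were called higher and 7.70% lower. Ovary markers were low but did not overlap, with sums of 27, 7 and 43 in control and 2, 0 and 2 in *RasV12* libraries, and 0 of the 3 tested were called (1 at an unadjusted p under 0.05). These 3 genes passed the filter only through control values, so a lower level in *RasV12* libraries was built into their choice. Hemocyte markers summed to 5 to 9 and 2 to 4, and fat body markers to 250 to 567 and 264 to 358. Nearly all of the fat body sum came from *apolpp* and *FASN1*, while *Fbp1* was at 0 throughout and *Lsp2* at most 5. The part of these cell types in the V-ATPase values was not tested.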

How the data were processed

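RNA of 6 hindgut pools was prepared by the study as QuantSeq 3′ mRNA libraries and sequenced on an Ion Proton. Reads were aligned by the authors to dm6 with hisat2, and unmapped reads with bowtie2. Genotypes were compared by the authors through metaseqR2 with DESeq. The deposited signal per gene is the authors' read count multiplied by 1 factor per library and rounded to whole numbers, so count models were not used. Tool versions and the strand of counting are not given in the sources used here.

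Symbols and positions came from Ensembl 115 (BDGP6.54, dm6 coordinates), with 17520 of 17617 identifiers named. The filter kept 7155 genes that exceeded 9 (the median over the 11086 genes not at 0 throughout) in 1 or more libraries. On log2(value + 1), limma 3.58.1 (R 4.3.3) with a variance trend gave two-sided p-values, adjusted by Benjamini-Hochberg. Fold changes on this scale understate those of low genes, and folds quoted as such are ratios of group means. Other software was numpy 2.4.6, pandas 2.3.3 and matplotlib 3.10.9 under Python 3.11.15. The procedure was tested on simulated counts without the scaling and rounding of the deposited values, so that test does not cover the coarse low values. Every *Vha* gene was named, and genes of other lists where called, up to 4 per list, others being added after their values were seen. Members and lists were chosen with earlier results of these data known. Alternatives covered pseudocount, filter, scaling, variance model, replicate block and each library left out. Sequence motifs and protein identity were not analysed here, nor was voom on recovered reads.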

Additional observations from a re-analysis of the deposited data

How the results depend on the processing

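The number of V-ATPase genes called lower was 12 or 13 under 15 of the 16 alternatives and 8 without the variance trend, and the 12 were among the calls wherever 12 or more were counted. The number called higher was 1 in place of 0, always *VhaM9.7-d*, with a pseudocount of 0.5 (limma's adjusted p = 0.0498), without the filter and without the variance trend, and 0 to 1 with a library left out. The 1198 calls over all genes became 704 without the variance trend (277 lower, 427 higher), where the assembly list had 0 and the lysosome list 2 calls. With a library left out these calls ranged from 604 to 1157 (270 to 528 lower, 334 to 629 higher), with 3 to 6 for the lysosome list and 0 to 1 for the late endosome list. Log2 fold changes then ranged from −1.71 to 0.0614 for *Vha100-5* and from −0.14 to 0.0442 for *VhaM9.7-c*, whose directions reversed without control replicate 1 and *RasV12* replicate 3. The cause of these shifts was not tested. Same-numbered libraries did not deviate together (correlations −0.046, 0.004 and −0.012), and with the replicate block 12 V-ATPase genes were called lower. Voom on recovered reads was not run. Low values in control replicates 1 and 3 are coarse, which limits what can be said of the rare paralogues.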
